A study of Mus musculus with 18 samples.

Results

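The comparison described here asks where gene levels stood at the end of a 2-step treatment of cultured primary Leydig cells from mice. Leydig cells make the testosterone of the testis. The cells were treated with hydrogen peroxide (H2O2) and then with fluvastatin, a statin, and were set against cells that had neither. The comparison set 3 of the 18 libraries of the series against 3 others, chosen by their labelled groups. It covered all 16432 genes that passed a filter on low counts. The filter, the scaling and the spread were taken from all 18 libraries. The siNC+H2O2+FV group (3 libraries) carried a control siRNA (siNC) and had 200 µM H2O2 for 30 min and then 5 µM fluvastatin (FV) for 6 h. The siNC group (3 libraries) carried the same siRNA, had no H2O2 and had 0.1% DMSO for those 6 h. The siNC+H2O2 group (3 libraries) carried the same siRNA and had H2O2 and then 0.1% DMSO for the same 6 h. It is given beside the others as H2O2 without fluvastatin, and it does not show the level before fluvastatin was added. Below, the H2O2 step is siNC+H2O2 against siNC, and the fluvastatin step is siNC+H2O2+FV against siNC+H2O2. Neither step is a change followed over time. A second arm with an siRNA against Prdx1, the siprdx1+H2O2+FV and siprdx1 groups (3 libraries each), had the same treatments. Prdx1 encodes peroxiredoxin 1, an enzyme that breaks down H2O2. The labels record no DMSO where fluvastatin was given, and no group had fluvastatin without H2O2, so the end level cannot be told apart from that of fluvastatin or its vehicle alone.

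Statins block an early step of the mevalonate pathway, from which cells build cholesterol and the isoprenoid tails that anchor small GTPases to membranes. A fall in cellular sterols frees the transcription factor SREBP2, which raises the genes of cholesterol synthesis and uptake. H2O2 oxidises protein thiols, and cells answer it through the transcription factor NRF2, through heat shock and stress kinase pathways, and through immediate early genes, which are transcribed within minutes of a stimulus. The actin cytoskeleton acts on transcription through MRTF proteins, which bind the serum response factor SRF at a DNA element called the CArG box. Interferon-stimulated genes carry a different element, to which the interferon-activated STAT and IRF proteins bind.

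Promoters of members of these last groups are shown because the members that passed ended mostly above the untreated level in the SRF group and below it in the interferon group. They run from 250 bases before to 50 bases after the transcription start in RefSeq (GRCm38.p6), 5′ to 3′ on the gene's strand. Capitals mark the CArG box in Srf and Vcl, and the interferon element, searched on both strands as a TTTC, any 2 bases and another TTTC, in Ifit1, Ifit3, Isg15 and Rsad2.
Srf, serum response factor (chr17:46556113-46556412, - strand): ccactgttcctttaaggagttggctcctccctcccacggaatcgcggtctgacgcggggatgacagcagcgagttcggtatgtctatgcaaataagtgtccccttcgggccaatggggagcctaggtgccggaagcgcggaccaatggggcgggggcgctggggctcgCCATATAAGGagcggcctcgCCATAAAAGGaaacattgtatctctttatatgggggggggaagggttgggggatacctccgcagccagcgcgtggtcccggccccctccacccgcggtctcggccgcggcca
Vcl, vinculin (chr14:20929148-20929447, + strand): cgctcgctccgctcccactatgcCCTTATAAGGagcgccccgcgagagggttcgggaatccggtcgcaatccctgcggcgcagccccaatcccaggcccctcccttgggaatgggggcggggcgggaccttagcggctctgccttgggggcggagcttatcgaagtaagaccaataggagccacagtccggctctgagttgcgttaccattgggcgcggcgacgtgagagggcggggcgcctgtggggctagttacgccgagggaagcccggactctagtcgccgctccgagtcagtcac
Ifit1 (chr19:34640639-34640938, + strand): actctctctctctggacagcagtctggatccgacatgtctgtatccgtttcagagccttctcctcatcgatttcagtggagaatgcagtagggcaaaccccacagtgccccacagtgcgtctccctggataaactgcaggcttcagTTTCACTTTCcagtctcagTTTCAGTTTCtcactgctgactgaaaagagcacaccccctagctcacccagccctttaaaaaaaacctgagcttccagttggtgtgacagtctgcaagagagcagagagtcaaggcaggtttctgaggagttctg
Ifit3 (chr19:34583279-34583578, + strand): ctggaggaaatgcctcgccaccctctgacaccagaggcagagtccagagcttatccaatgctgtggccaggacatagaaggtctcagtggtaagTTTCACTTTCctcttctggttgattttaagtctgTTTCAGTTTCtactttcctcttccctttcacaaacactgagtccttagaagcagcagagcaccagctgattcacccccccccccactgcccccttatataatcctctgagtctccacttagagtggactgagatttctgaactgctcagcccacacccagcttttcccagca
Isg15 (chr4:156200769-156201068, - strand): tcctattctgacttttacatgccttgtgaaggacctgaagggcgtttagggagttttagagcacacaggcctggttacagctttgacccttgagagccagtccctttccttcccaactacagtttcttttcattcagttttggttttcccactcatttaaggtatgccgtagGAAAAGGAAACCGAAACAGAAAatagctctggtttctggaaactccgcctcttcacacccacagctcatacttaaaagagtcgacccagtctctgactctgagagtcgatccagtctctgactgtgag
Rsad2 (chr12:26456403-26456702, - strand): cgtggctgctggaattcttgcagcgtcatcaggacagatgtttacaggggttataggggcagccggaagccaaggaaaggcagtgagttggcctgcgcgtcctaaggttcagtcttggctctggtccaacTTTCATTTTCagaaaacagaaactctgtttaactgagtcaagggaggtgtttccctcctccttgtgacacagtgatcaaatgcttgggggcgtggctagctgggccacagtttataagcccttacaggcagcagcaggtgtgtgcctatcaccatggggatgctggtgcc
Srf held 2 CArG boxes, and Vcl held 1. Ifit1 and Ifit3 held 2 matches each, Rsad2 held 1, and Isg15 held 3 that overlap one another on the opposite strand. CArG boxes were in a promoter of this length for 1.81% of the 27025 genes in the table, and for 8 of the 21 SRF and actin genes that had one there (38.1%). The interferon element was in a promoter of 3.99% of all genes, of 11 of 20 interferon-stimulated genes (55.0%) and in none of the 21 SRF and actin genes. A match is a description of these letters and does not show that a factor binds there.

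Levels are given as CPM, library-scaled read counts (TMM), with the 3 libraries of a group in the order of their replicate numbers. The siNC+H2O2+FV libraries held 18899222, 21569794 and 23168229 counts, and the siNC libraries held 21568170, 22187255 and 23153078. The 18 libraries ranged from 15201530 to 23898435 counts. Markers of macrophages were high in both groups, with a summed level of 8999 to 9073 CPM over 17 genes in siNC+H2O2+FV and 8952 to 9780 CPM in siNC. Fibroblast and stromal markers summed to 5417 to 5503 CPM in siNC+H2O2+FV and 5665 to 5734 CPM in siNC. Sertoli markers summed to 1281 to 1428 CPM in siNC+H2O2+FV and 1198 to 1339 CPM in siNC. Sums over lists of different genes do not give the shares of cells. Leydig cell genes were present (Cyp11a1 at 789 ± 11.5 CPM and Star at 502 ± 23.95 CPM in siNC+H2O2+FV, against 743 ± 30.3 CPM and 195 ± 7.65 CPM in siNC), while Cyp17a1 and Hsd17b3 did not pass the filter on low counts. Erythrocyte markers were absent or near 0, and none of the 7 passed the filter. Prdx1 was lower in the libraries labelled siprdx1, with 559.9, 519 and 547 CPM in siprdx1+H2O2+FV and 498, 426 and 468 CPM in siprdx1, against 1524, 1528 and 1459.5 CPM in siNC+H2O2+FV and 1345, 1358 and 1279 CPM in siNC. In such bulk samples, fewer cells of a type and less RNA per cell cannot be told apart. The labels call the replicates biological without saying whether they came from separate animals, so p-values measure the spread between these libraries, which may be technical.

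After H2O2 and fluvastatin 1862 genes ended above the untreated level and 1913 below it, out of 16432. Together 3775 genes (23.0%) passed the edgeR quasi-likelihood test at a Benjamini-Hochberg adjusted p below 0.05, 11.3% higher and 11.6% lower. The rises were the more extreme, since 55 genes that passed were at least 8-fold higher and 3 were at least 8-fold lower. Most changes were small, and 64.2% of the genes that passed differed by less than 1.5-fold. The median log2 fold change was 0.44 among the rises and -0.44 among the falls. A gene was taken to have ended at the untreated level where the 95% interval of its log2 fold change lay wholly within 1.2-fold of it, which held for 3898 genes (23.7%). Of these, 60 also passed the test, with small changes, and 8819 genes met neither criterion, so their place is not settled at this depth and replication. A narrow interval depends on a gene's level and spread as well as on its change. Counts for the gene lists below are to be read beside these shares of all genes (11.3% higher, 11.6% lower and 23.7% within 1.2-fold). TMM scaling set the median log2 fold change near 0 (0.0011). Scaling by library size alone lowers log2 fold changes by 0.12, which gives 1170 higher and 4003 lower genes, so changes are stated relative to the TMM scale.

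**Figure D1:**
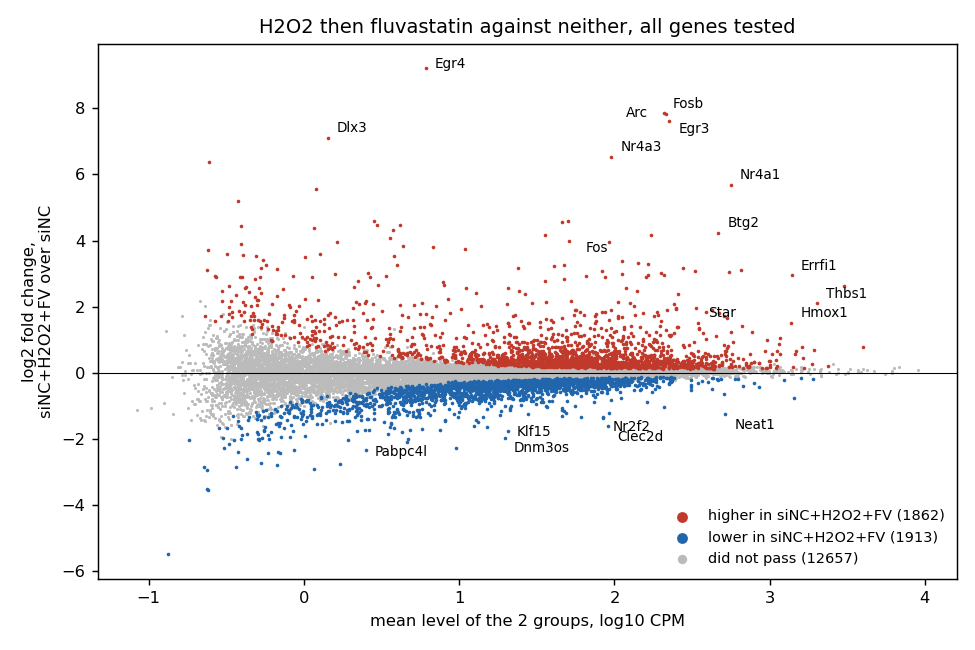
Log2 fold change of siNC+H2O2+FV over siNC (y axis) against the mean level of both groups (x axis, log10 CPM) for the 16432 genes tested, with 1862 higher in red, 1913 lower in blue and the rest in grey. The points far above 0 reach further than those below 0, and the fitted values of Egr4 and Dlx3 rest on 1 read in siNC.

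Among genes averaging at least 1 CPM whose groups did not overlap, 6 of the 12 largest rises were in immediate early transcription factors. Egr3, a zinc finger factor (chr14:70077203-70082614, + strand), had 458, 440.3 and 448 CPM in siNC+H2O2+FV, 1.57, 2.17 and 2.20 CPM in siNC+H2O2 and 1.87, 2.80 and 2.11 CPM in siNC. Its libraries after both treatments were all far above the others, and the H2O2 libraries overlapped the untreated ones (log2 fold change 7.63, SE 0.11, edgeR adjusted p = 2.14e-25). Fosb, a partner of JUN in the AP-1 complex, had 375, 430.2 and 437 CPM in siNC+H2O2+FV, 13.7, 14.9 and 15.7 CPM in siNC+H2O2 and 1.73, 2.05 and 1.56 CPM in siNC, with no overlap between groups (log2 fold change 7.86, SE 0.13, edgeR adjusted p = 1.21e-24). Arc, which binds the cytoskeleton and is best known from neurons, had 394, 425 and 461 CPM in siNC+H2O2+FV, 65.4, 61.7 and 69.4 CPM in siNC+H2O2 and 1.28, 2.49 and 1.81 CPM in siNC, with no overlap between groups (log2 fold change 7.83, SE 0.15, edgeR adjusted p = 3.96e-23). The orphan nuclear receptors ended high as well. Nr4a1, which in Leydig cells activates steroidogenic promoters, had 1039, 1060.5 and 1192 CPM in siNC+H2O2+FV, against 21.6, 19.9 and 22.01 CPM in siNC, and its groups were far apart (log2 fold change 5.70, SE 0.072, edgeR adjusted p = 1.09e-23). Nr4a3 had 191, 194 and 183 CPM in siNC+H2O2+FV, against 2.46, 2.18 and 1.48 CPM in siNC (log2 fold change 6.54, SE 0.15, edgeR adjusted p = 3.05e-21). Egr4 and Dlx3, a zinc finger and a homeobox factor, were almost unread in untreated cells. Egr4 had 206, 256 and 269 reads in siNC+H2O2+FV, against 0, 1 and 0 reads in siNC, a ratio of 835.7 with a 95% counting interval of 149.5 to 33050. Dlx3 had 46, 57 and 68 reads in siNC+H2O2+FV, against 0, 0 and 1 in siNC, a ratio of 195.5 with an interval of 34.6 to 7766. These intervals cover counting error only. The other genes among the 12 largest rises were Fosl1 (log2 fold change 4.60), Tmem95 (4.59), Hbegf (4.56), Apol8 (4.48) and Grhl1 (4.46). Fosl1 shares exon sequence with the antisense gene Ccdc85b, and the sources used here do not say whether counting used strand.

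All 27 immediate early genes rose, with log2 fold changes from 0.68 up and a median of 3.01, where 11.3% of all genes rose and the median of all genes was 0.0011. They differed in the step that held most of their difference. After H2O2 alone 20 of the 27 had risen over siNC, in a comparison in which 2.36% of genes rose (6.95% passed in all). Between siNC+H2O2+FV and siNC+H2O2, where 13.5% of genes rose and 24.9% passed, 23 were higher and 1 lower. These comparisons share libraries with the net one, and so their values are set side by side only. Fos, the founding AP-1 gene, had 193, 209.9 and 211 CPM in siNC+H2O2+FV, 261, 246 and 259.7 CPM in siNC+H2O2 and 19.1, 21.01 and 18.2 CPM in siNC. Its highest level was in siNC+H2O2, and its level in siNC+H2O2+FV was far above that in siNC (log2 fold change 3.40, SE 0.071, edgeR adjusted p = 2.17e-20). Btg2, an antiproliferative gene, had 877, 895 and 891 CPM in siNC+H2O2+FV, 314, 317 and 309 CPM in siNC+H2O2 and 46.5, 46.8 and 47.4 CPM in siNC (log2 fold change 4.24, SE 0.043, edgeR adjusted p = 2.14e-25). Egr1 ended at 1171 ± 65.5 CPM in siNC+H2O2+FV, with 675 ± 18.1 CPM in siNC+H2O2, against 135 ± 6.84 CPM in siNC, and its groups did not overlap. Jun and Ier2 had similar levels in siNC+H2O2 and siNC+H2O2+FV, with 388 ± 18.9 CPM and 199 ± 10.8 CPM in siNC+H2O2+FV, 343 ± 4.62 CPM and 187 ± 10.7 CPM in siNC+H2O2, and 92.03 ± 1.95 CPM and 24.9 ± 2.88 CPM in siNC. Egr2 and Klf10 resembled Egr3 in that most of the difference lay between the groups with and without fluvastatin, with log2 fold changes of 3.63 and 2.51 for that step and 0.53 and 0.44 for the H2O2 step.

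Feedback inhibitors of growth factor and MAP kinase signalling rose for 11 of 16 (11.3% of all genes rose) and fell for 1, with a median log2 fold change of 0.86. Errfi1, which inhibits the EGF receptor, had 2562, 2438 and 2369 CPM in siNC+H2O2+FV, 278, 275 and 274 CPM in siNC+H2O2 and 318, 323 and 314 CPM in siNC (log2 fold change 2.95, SE 0.047, edgeR adjusted p = 3.14e-22). Its level after H2O2 alone was slightly below that of untreated cells. Dusp5, a phosphatase that acts on ERK in the nucleus, had 79.8, 82.8 and 93.2 CPM in siNC+H2O2+FV, against 8.76, 9.04 and 8.77 CPM in siNC, with no overlap (log2 fold change 3.27, SE 0.086, edgeR adjusted p = 9.33e-19). Dusp1 and Dusp10, phosphatases of the stress kinases, had log2 fold changes of 1.84 ± 0.058 and 1.90 ± 0.064 (± SE). Dusp1 was also high in siNC+H2O2, at 422 ± 20.1 CPM, against 169 ± 8.65 CPM in siNC. The fall was in Spry1, a Sprouty inhibitor of receptor tyrosine kinases, with 69.6, 76.02 and 75.5 CPM in siNC+H2O2+FV, against 103, 97.7 and 104 CPM in siNC (log2 fold change -0.46, SE 0.055, edgeR adjusted p = 8.24e-07), and 4 of the list fell under scaling by library size alone. Among EGF receptor ligands 2 of 5 tested rose (11.3% of all genes). Hbegf had 92.1, 88.9 and 84.99 CPM in siNC+H2O2+FV, against 3.97, 3.49 and 3.80 CPM in siNC (log2 fold change 4.56, SE 0.10, edgeR adjusted p = 3.05e-21). Ereg had 99.8, 97.2 and 91.0 CPM in siNC+H2O2+FV, against 6.89, 5.50 and 5.95 CPM in siNC (log2 fold change 3.97, SE 0.086, edgeR adjusted p = 1.58e-20). Tgfa lay within 1.2-fold of the untreated level (log2 fold change -0.011, 95% interval -0.15 to 0.13). Ereg overlaps Gm19610 on the opposite strand.

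**Figure D2:**
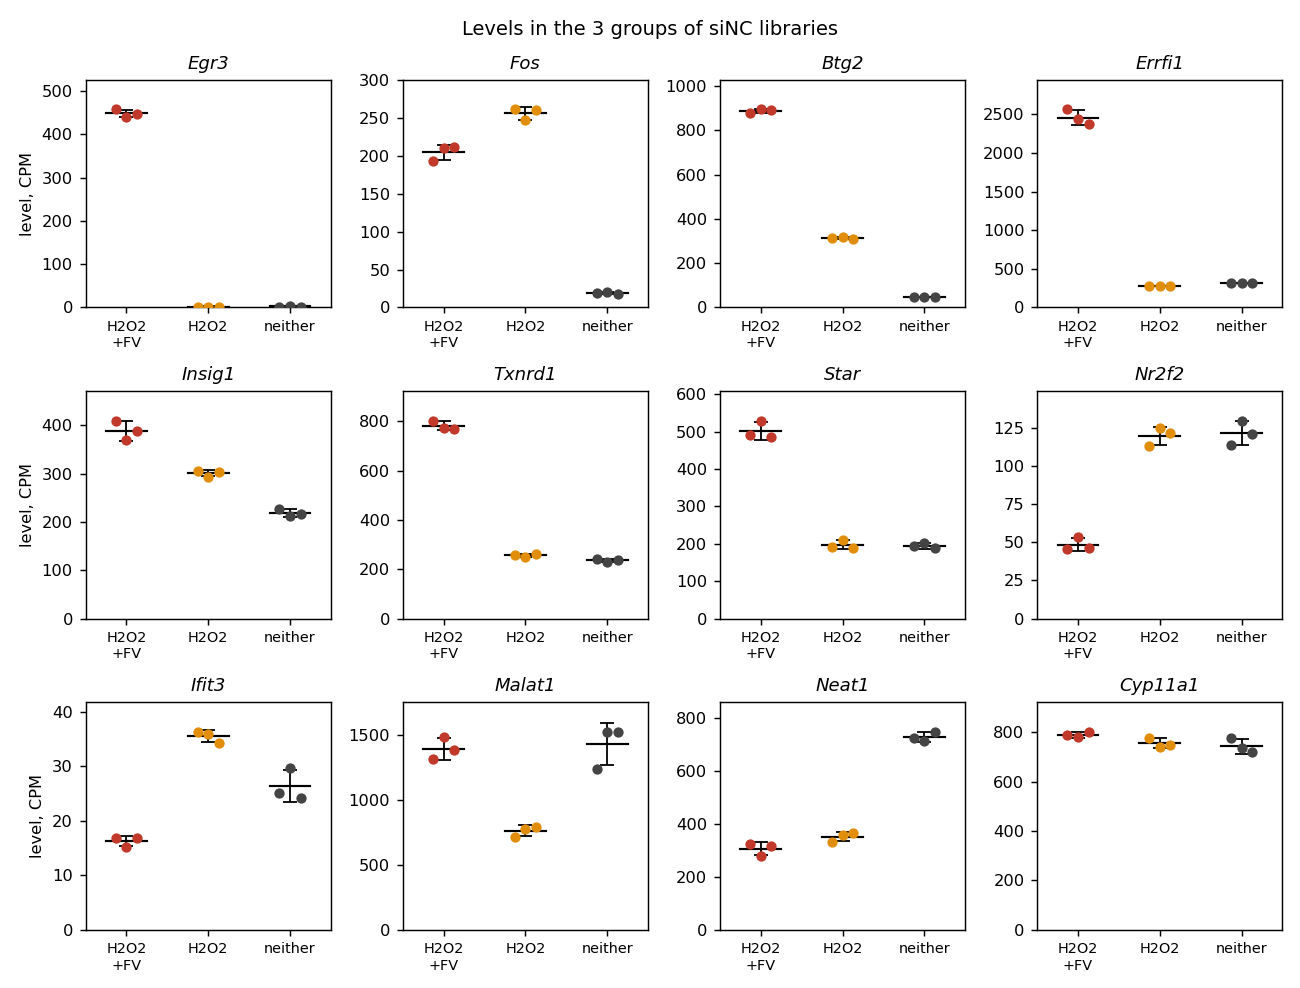
Level in CPM (y axis, from 0) of 12 genes in the 3 siNC groups, with each point a library and the bars the mean and SD of 3. Egr3, Errfi1 and Star stand far higher in siNC+H2O2+FV than in both other groups, Fos is high in both H2O2 groups, and Malat1 is lower in siNC+H2O2 than in both other groups.

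Genes of the actin cytoskeleton controlled by SRF and MRTF rose for 19 of 24 and fell for 2, with a median log2 fold change of 0.46, where 11.3% of all genes rose and 11.6% fell. Srf itself, whose promoter is shown above with 2 CArG boxes, had 151, 173 and 186 CPM in siNC+H2O2+FV, 42.2, 46.9 and 49.1 CPM in siNC+H2O2 and 53.4, 49.2 and 56.3 CPM in siNC, so its level after H2O2 alone was no higher than in untreated cells (log2 fold change 1.68, SE 0.088, edgeR adjusted p = 1.07e-12). Vcl, which encodes the focal adhesion protein vinculin, had 773, 785 and 732 CPM in siNC+H2O2+FV, against 386, 422 and 403 CPM in siNC, without overlap (log2 fold change 0.92, SE 0.045, edgeR adjusted p = 2.02e-13). It overlaps Ap3m1 on the opposite strand. Smooth muscle actin Acta2 had 1270.1, 1228 and 1353 CPM in siNC+H2O2+FV, against 691, 596 and 663 CPM in siNC (log2 fold change 0.98, SE 0.067, edgeR adjusted p = 8.11e-11), and tropomyosin Tpm1 had 1931, 2142 and 2094 CPM in siNC+H2O2+FV, against 1155, 1262 and 1151 CPM in siNC (log2 fold change 0.79, SE 0.053, edgeR adjusted p = 6.53e-11). Calponin Cnn1 had the highest fold change of the list, at 2.24 ± 0.19 on the log2 scale (± SE) and 13.9 ± 1.07 CPM in siNC+H2O2+FV and 2.93 ± 0.717 CPM in siNC. Actb, the main cytoplasmic actin, averaged 5036 ± 218 CPM in siNC+H2O2+FV and 2928 ± 159 CPM in siNC (SD, n = 3 each). The 2 falls were in the coactivator genes Mrtfa (-0.32 ± 0.075) and Mrtfb (-0.26 ± 0.062). Of these 24 genes 1 had risen and 3 had fallen after H2O2 alone, where 2.36% of all genes rose and 4.59% fell.

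Targets of YAP and TEAD, the transcription factors that respond to cell tension, ended higher for 9 of 17 and lower for 2 (11.3% and 11.6% of all genes). F3, which encodes tissue factor, had 984, 1013 and 949 CPM in siNC+H2O2+FV, 102, 103 and 95.2 CPM in siNC+H2O2 and 115, 121 and 117 CPM in siNC (log2 fold change 3.06, SE 0.049, edgeR adjusted p = 3.14e-22). Nuak2, a kinase of the AMPK family, had 81.3, 84.5 and 87.7 CPM in siNC+H2O2+FV, against 26.4, 23.3 and 25.4 CPM in siNC (log2 fold change 1.76, SE 0.065, edgeR adjusted p = 9.98e-16), and its groups did not overlap. Ccn1, a matricellular protein, averaged 1576 ± 111 CPM in siNC+H2O2+FV and 751 ± 42.1 CPM in siNC (log2 fold change 1.07). The falls were in Amotl1 (-0.37) and Ajuba (-0.33), and Axl, a receptor kinase, lay within 1.2-fold (95% interval -0.11 to 0.077). Scaling by library size alone gave 6 falls among YAP targets.

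Of 28 extracellular matrix genes 9 rose, none fell and 15 lay within 1.2-fold (11.3%, 11.6% and 23.7% of all genes). Thbs1, which encodes thrombospondin 1, had 3214, 3314 and 3251 CPM in siNC+H2O2+FV, 701, 694 and 688 CPM in siNC+H2O2 and 747, 759 and 752 CPM in siNC (log2 fold change 2.11, SE 0.04, edgeR adjusted p = 3.05e-21). It was slightly lower in siNC+H2O2 than in siNC and several-fold higher in siNC+H2O2+FV. The collagen gene Col3a1 had 6004, 6478 and 6083 CPM in siNC+H2O2+FV, against 6272, 6285 and 5911 CPM in siNC, with overlapping groups and a narrow 95% interval of -0.092 to 0.11 on the log2 scale, and Sparc, a matrix glycoprotein, had an interval of -0.017 to 0.21. Genes of TGF-beta and BMP feedback rose for 14 of 22 and fell for 4 (11.3% and 11.6% of all genes). Id4, an inhibitor of helix-loop-helix factors, had 35.9, 37.5 and 32.4 CPM in siNC+H2O2+FV, against 6.07, 6.99 and 4.72 CPM in siNC (log2 fold change 2.57, SE 0.14, edgeR adjusted p = 1.94e-12), and Skil and Smad7, inhibitors of SMAD signalling, had log2 fold changes of 1.91 ± 0.083 and 1.67 ± 0.076 (± SE). The falls were in Bmp4 (-0.42), Bambi (-0.31), Smad3 (-0.18) and Ski (-0.15). The 95% interval of Ski also lay within 1.2-fold, but not without siNC+H2O2+FV replicate 2 or 3 or siNC replicate 1 or 2, when its lower end reached -0.273 to -0.298. Without siNC+H2O2+FV replicate 1 or 2 or siNC replicate 1, 1 gene of this list fell, and without siNC replicate 3, 2 fell.

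Sterol synthesis and uptake genes rose for 12 of 27, and 11 lay within 1.2-fold (11.3% and 23.7% of all genes). The list's median log2 fold change was 0.16. Insig1, a sterol-regulated brake on SREBP processing, had 409, 369 and 388 CPM in siNC+H2O2+FV, 304, 294 and 303 CPM in siNC+H2O2 and 227, 213 and 216 CPM in siNC (log2 fold change 0.83, SE 0.056, edgeR adjusted p = 5.37e-11). Hsd17b7, a late enzyme of cholesterol synthesis, averaged 141 ± 6.41 CPM in siNC+H2O2+FV and 71.1 ± 1.75 CPM in siNC, and Hmgcs1, an early enzyme of the mevalonate pathway, averaged 593 ± 43.7 CPM in siNC+H2O2+FV and 451 ± 27.9 CPM in siNC (SD, n = 3 each), log2 fold changes of 0.99 and 0.40. Scap, the SREBP escort protein, lay within 1.2-fold, with an interval of -0.19 to 0.13. The fall was in Fdps, farnesyl diphosphate synthase (log2 fold change -0.30, SE 0.10, edgeR adjusted p = 0.0376), and it no longer passed without siNC+H2O2+FV replicate 1 or 2 or siNC replicate 2 or 3, when no gene of the list fell. Targets of LXR, the oxysterol receptor, lay within 1.2-fold of the untreated level for 7 of 13 (23.7% of all genes). Abca1, a cholesterol exporter, had 1004, 966 and 908 CPM in siNC+H2O2+FV, against 911, 999.8 and 972 CPM in siNC, with overlapping groups and an interval of -0.11 to 0.11. Nr1h3, which encodes LXR alpha, fell (log2 fold change -0.62, SE 0.12, edgeR adjusted p = 0.00045), and Scd1, a fatty acid desaturase, rose by a small amount (log2 fold change 0.19, SE 0.047, edgeR adjusted p = 0.00417). A second LXR target fell without siNC+H2O2+FV replicate 3, and a second one rose without siNC replicate 3. With library size alone no LXR target rose and 3 fell, and 4 sterol genes fell.

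NRF2 targets rose for 11 of 24 and none fell (11.3% and 11.6% of all genes), and the members differed widely. Srxn1, which encodes sulfiredoxin and repairs overoxidised peroxiredoxins, had 687, 673 and 649 CPM in siNC+H2O2+FV, 235, 224 and 228 CPM in siNC+H2O2 and 182, 180.1 and 178 CPM in siNC (log2 fold change 1.90, SE 0.046, edgeR adjusted p = 3.83e-19). Txnrd1, thioredoxin reductase 1, had 803, 773 and 769 CPM in siNC+H2O2+FV, 258, 251 and 261 CPM in siNC+H2O2 and 242, 229 and 236 CPM in siNC (log2 fold change 1.73, SE 0.043, edgeR adjusted p = 4.95e-19). Hmox1, the haem-degrading enzyme, had 1944, 2050.1 and 2137 CPM in siNC+H2O2+FV, 844, 844 and 865 CPM in siNC+H2O2 and 719, 709 and 721 CPM in siNC, so its level was a little above untreated after H2O2 alone and far above it at the end (log2 fold change 1.51, SE 0.051, edgeR adjusted p = 1.63e-16). Gclc, the catalytic subunit of the glutathione-synthesis enzyme, averaged 164 ± 4.06 CPM in siNC+H2O2+FV and 65.5 ± 1.90 CPM in siNC, a log2 fold change of 1.32 ± 0.053 (± SE), and its partner Gclm had 0.56 ± 0.071. Nqo1, a quinone reductase, averaged 28.4 ± 0.785 CPM in siNC+H2O2+FV and 18.9 ± 0.242 CPM in siNC (log2 fold change 0.59, SE 0.075, edgeR adjusted p = 2.16e-06). By contrast, Cat, catalase, lay within 1.2-fold with an interval of -0.033 to 0.14. In a separate list of antioxidant enzymes 14 of 24 lay within 1.2-fold (23.7% of all genes). In that list 2 rose, a share not above the 11.3% of all genes, and none fell (11.6%). Gpx3, a secreted glutathione peroxidase, had an interval of -0.20 to -0.0064.

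Prdx1 itself was among the 2 antioxidant rises. It averaged 1504 ± 38.4 CPM in siNC+H2O2+FV and 1327 ± 42.2 CPM in siNC, each end library above each untreated one (log2 fold change 0.18, SE 0.062, edgeR adjusted p = 0.0378). Its level after H2O2 alone, 1689.6, 1648 and 1558 CPM, was the highest of the siNC arm. The rise no longer passed with library size alone, where the log2 fold change was 0.058, or without siNC+H2O2+FV replicate 1 or 2 or siNC replicate 1 or 3. Prdx1 has near-identical copies in the genome (Gm7204 and Gm21399) with which its reads could be shared. The other rise, Gss, glutathione synthetase (log2 fold change 0.23), no longer passed under several settings, and no antioxidant gene rose without siNC+H2O2+FV replicate 1, 1 rose without siNC replicate 1 or 2, and 1 fell without siNC replicate 3. Under scaling by library size alone none rose and 3 fell.

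Heat shock genes rose for 13 of 20 and none fell (11.3% and 11.6% of all genes). Dnajb1, an HSP40 cochaperone, had 274, 272 and 295 CPM in siNC+H2O2+FV, 75.2, 75.5 and 77.5 CPM in siNC+H2O2 and 37.96, 37.5 and 36.7 CPM in siNC, higher at each step (log2 fold change 2.91, SE 0.053, edgeR adjusted p = 3.05e-21). Hspa1b and Hspa1a, the inducible HSP70 genes, are near-identical, so their reads can be split between them. Hspa1b had 222, 226 and 259 CPM in siNC+H2O2+FV, against 41.9, 40.5 and 45.2 CPM in siNC (log2 fold change 2.47, SE 0.092, edgeR adjusted p = 6.17e-15), and Hspa1a had a log2 fold change of 1.75 ± 0.09 (± SE). The constitutive Hsp90ab1 lay within 1.2-fold (interval -0.038 to 0.18). The integrated stress response, in which ATF4 is translated when initiation is inhibited, had 16 of 22 genes higher and none lower (11.3% and 11.6% of all genes). Atf4 had 502, 516 and 548 CPM in siNC+H2O2+FV, 358, 339 and 352 CPM in siNC+H2O2 and 232, 222 and 227 CPM in siNC (log2 fold change 1.202, SE 0.048, edgeR adjusted p = 4.43e-15). Chac1, which degrades glutathione, had 19.1, 19.9 and 25.8 CPM in siNC+H2O2+FV, against 4.79, 3.98 and 3.42 CPM in siNC (log2 fold change 2.42, SE 0.16, edgeR adjusted p = 1.73e-11), and the amino acid transporter Slc7a1 averaged 211 ± 5.49 CPM in siNC+H2O2+FV and 80.4 ± 3.21 CPM in siNC, a log2 fold change of 1.39. Endoplasmic reticulum chaperones moved less, 8 of 20 higher with a median of 0.15 and 10 within 1.2-fold (11.3% and 23.7% of all genes). Hspa5, the chaperone BiP, had 1401, 1423 and 1329 CPM in siNC+H2O2+FV, 1145, 1136 and 1083 CPM in siNC+H2O2 and 929.8, 982 and 877 CPM in siNC (log2 fold change 0.57, SE 0.051, edgeR adjusted p = 8.72e-09), while calreticulin Calr lay within 1.2-fold (interval -0.0063 to 0.17). Library size alone gave 4 rises and 1 fall among these chaperones.

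NF-kappaB targets and inflammatory genes rose for 21 of 26 tested (11.3% of all genes), with a median log2 fold change of 0.64. Ptgs2, cyclooxygenase 2, had 74.9, 67.5 and 61.7 CPM in siNC+H2O2+FV, 4.89, 6.61 and 4.01 CPM in siNC+H2O2 and 3.38, 4.28 and 3.58 CPM in siNC (log2 fold change 4.18, SE 0.16, edgeR adjusted p = 3.86e-15). Lif, a cytokine of the interleukin 6 family, had 73.7, 72.5 and 73.4 CPM in siNC+H2O2+FV, 9.05, 11.5 and 11.1 CPM in siNC+H2O2 and 7.76, 7.34 and 8.48 CPM in siNC (log2 fold change 3.22, SE 0.10, edgeR adjusted p = 1.61e-17), and both stood near the untreated level after H2O2 alone. The chemokine Cxcl1 had 18.4, 19.4 and 19.2 CPM in siNC+H2O2+FV, 7.31, 8.51 and 7.08 CPM in siNC+H2O2 and 2.60, 3.80 and 3.25 CPM in siNC, higher at each step (log2 fold change 2.56, SE 0.13, edgeR adjusted p = 8.95e-14). Tnf had 20.6, 20.98 and 23.3 CPM in siNC+H2O2+FV, 21.1, 20.7 and 18.8 CPM in siNC+H2O2 and 11.9, 10.8 and 10.8 CPM in siNC, so that most of its difference from untreated cells was present after H2O2 alone (log2 fold change 0.95, SE 0.084, edgeR adjusted p = 5.82e-09). Nfkb1, which encodes the p105 and p50 subunit, lay within 1.2-fold, with an interval of -0.028 to 0.18. No member fell in the full set of libraries, while 1 fell without siNC+H2O2+FV replicate 3 or siNC replicate 1, and 2 fell when scaled by library size alone. Macrophages express several of these genes. Of the 17 macrophage markers 1 rose, none fell and 12 lay within 1.2-fold (11.3%, 11.6% and 23.7% of all genes). The share that rose was not above that of all genes. The rise was in Cd14, a coreceptor for endotoxin (log2 fold change 0.90, SE 0.06, edgeR adjusted p = 5.09e-11). Lyz2 and Ctss were among those within 1.2-fold (intervals -0.15 to 0.074 and -0.094 to 0.10). Without siNC+H2O2+FV replicate 2, 1 marker fell, and on library size alone 7 fell. The part of macrophages in the NF-kappaB genes was not tested.

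Of 30 interferon-stimulated genes 17 fell and none rose, with a median log2 fold change of -0.38 where 11.6% of all genes fell. After H2O2 alone 3 were higher and 2 lower than in untreated cells (2.36% and 4.59% of all genes). The list's median log2 fold change was 0.14 for the H2O2 step and -0.50 for the fluvastatin step, at which 27 were lower (11.3% of all genes). Ifit3, an antiviral protein of the IFIT family whose promoter is shown above, had 16.8, 15.2 and 16.9 CPM in siNC+H2O2+FV, 36.4, 35.99 and 34.3 CPM in siNC+H2O2 and 25.1, 29.7 and 24.2 CPM in siNC, with no overlap between the end and untreated groups (log2 fold change -0.69, SE 0.085, edgeR adjusted p = 1.48e-06). Stat2, a subunit of the interferon-activated complex ISGF3, had 52.3, 56.9 and 59.02 CPM in siNC+H2O2+FV, 79.3, 79.1 and 81.02 CPM in siNC+H2O2 and 94.3, 91.5 and 94.3 CPM in siNC (log2 fold change -0.73, SE 0.058, edgeR adjusted p = 9.32e-10). Oasl2, an oligoadenylate synthetase-like protein, averaged 31.5 ± 0.545 CPM in siNC+H2O2+FV and 46.1 ± 2.04 CPM in siNC, a log2 fold change of -0.55 ± 0.06, and Dtx3l, a ubiquitin ligase, had -0.82 ± 0.079 (± SE). Dtx3l overlaps Parp9 on the opposite strand, and Ifit3 has a near-identical copy, Ifit3b. Isg15 and Rsad2, whose promoters also hold the element, did not pass (log2 fold changes -0.14 ± 0.11 and -0.21 ± 0.13). The summed level of the 30 genes was 656 to 672 CPM in siNC+H2O2+FV, 889 to 905 CPM in siNC+H2O2 and 843 to 860 CPM in siNC.

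**Figure D3:**
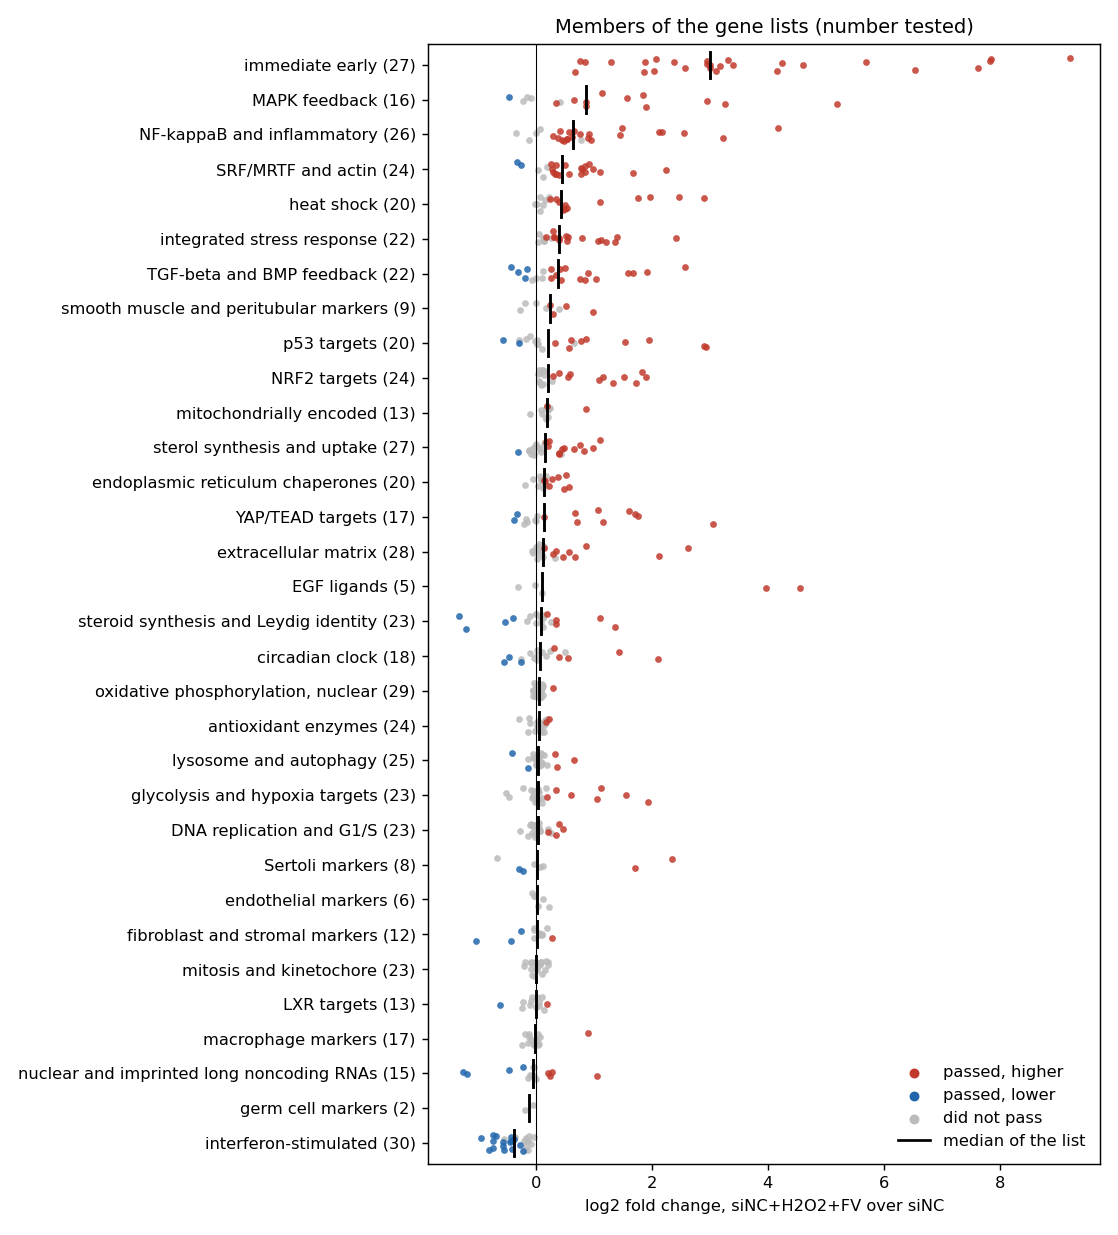
Log2 fold change of siNC+H2O2+FV over siNC (x axis) for each tested member of the gene lists drawn (y axis, ordered by median), with passing members in red or blue, others in grey, and the median as a black bar. All 27 immediate early genes lie to the right of 0, and all 30 interferon-stimulated genes lie to its left.

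Leydig cell genes moved in both directions, with 5 of 23 tested higher, 4 lower and 7 within 1.2-fold. Of all genes 11.3% were higher, 11.6% lower and 23.7% within 1.2-fold. Star, which encodes the protein that brings cholesterol into mitochondria and starts steroid synthesis (chr8:25806555-25815982, + strand), had 492, 529.6 and 485 CPM in siNC+H2O2+FV, 193, 212 and 189.7 CPM in siNC+H2O2 and 194, 203 and 188 CPM in siNC, with overlapping libraries after H2O2 alone and a far higher level at the end (log2 fold change 1.36, SE 0.051, edgeR adjusted p = 1.16e-15). Fdx1, ferredoxin, which carries electrons to the side-chain cleavage enzyme, had 188, 179 and 172 CPM in siNC+H2O2+FV, against 81.4, 85.1 and 83.8 CPM in siNC (log2 fold change 1.11, SE 0.067, edgeR adjusted p = 8.56e-12). Cyp11a1, that cleavage enzyme itself, had 787, 779 and 802 CPM in siNC+H2O2+FV, 778, 741 and 748 CPM in siNC+H2O2 and 776, 734 and 718 CPM in siNC and lay within 1.2-fold (interval -0.0029 to 0.18), as did Hsd3b1, the next enzyme, with an interval of -0.11 to 0.11. The falls included transcription factors of the Leydig lineage. Nr2f2, which encodes COUP-TFII, had 45.5, 53.4 and 46.4 CPM in siNC+H2O2+FV, 113, 125 and 122 CPM in siNC+H2O2 and 114, 129.7 and 121 CPM in siNC, with the end group below every other library (log2 fold change -1.33, SE 0.072, edgeR adjusted p = 1.3e-12). It overlaps B130024G19Rik on the opposite strand. Nr5a1, which encodes steroidogenic factor 1, averaged 72.5 ± 1.28 CPM in siNC+H2O2+FV and 95.7 ± 9.76 CPM in siNC (log2 fold change -0.40, SE 0.074, edgeR adjusted p = 0.00027), and Lipe, hormone-sensitive lipase, had a log2 fold change of -0.53. Insl3, the Leydig peptide hormone, varied too widely to place, with 23.4, 49.5 and 58.1 CPM in siNC+H2O2+FV, against 25.6, 47.2 and 50.8 CPM in siNC and an interval of -1.004 to 1.18, and it overlaps Jak3.

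Markers of other testis cells are given beside these because they share the culture. Of fibroblast and stromal markers 1 of 12 tested rose, near the 11.3% of all genes, and 3 fell (11.6% of all genes), among them Tcf21, a mesenchymal transcription factor, with 128, 136 and 148 CPM in siNC+H2O2+FV, against 295, 258 and 293 CPM in siNC (log2 fold change -1.03, SE 0.067, edgeR adjusted p = 2.88e-11), and Pdgfra (-0.44 ± 0.043), while Gsn, the actin-severing protein gelsolin, lay within 1.2-fold (interval -0.18 to 0.11). No fibroblast marker rose without siNC+H2O2+FV replicate 3 or siNC replicate 3, and 2 rose without siNC replicate 1. Smooth muscle and peritubular markers rose for 4 of 9 (11.3% of all genes), led by Lmod1, an actin nucleator, with 227, 246 and 255 CPM in siNC+H2O2+FV, against 121, 122 and 127 CPM in siNC (log2 fold change 0.98, SE 0.069, edgeR adjusted p = 1.48e-10). On library size alone 2 rose and 1 fell, and 1 fell without siNC+H2O2+FV replicate 2. Of 8 Sertoli markers tested 2 rose and 2 fell (11.3% and 11.6% of all genes). The members that passed in either direction were Amh, Cldn11, Sox9 and Wt1. Log2 fold changes over the list ran from -0.67 to 2.34, so the list had no common direction. Sox9, a transcription factor and a member that rose, had 33.7, 31.8 and 35.9 CPM in siNC+H2O2+FV, against 10.3, 10.7 and 10.04 CPM in siNC (log2 fold change 1.71, SE 0.085, edgeR adjusted p = 2.1e-13). Without any single library other than siNC replicate 1, 1 Sertoli marker fell. None of the 6 endothelial markers or 2 germ cell markers tested passed, while both germ cell markers fell under scaling by library size alone. The part of these cells in the results was not tested.

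Targets of p53 rose for 9 of 20 and fell for 2, where 11.3% of all genes rose and 11.6% fell. Plk3 and Plk2, Polo-like kinases of the stress response, had 117 ± 8.995 CPM and 152 ± 6.19 CPM in siNC+H2O2+FV, against 15.3 ± 0.987 CPM and 20.3 ± 1.79 CPM in siNC (SD, n = 3 each; log2 fold changes 2.93 and 2.91). Cdkn1a, the cell cycle inhibitor p21, had 202, 186 and 209 CPM in siNC+H2O2+FV, 146, 131 and 149 CPM in siNC+H2O2 and 122, 109 and 116 CPM in siNC (log2 fold change 0.78, SE 0.062, edgeR adjusted p = 1.12e-09), and Mdm2, which degrades p53, had a log2 fold change of 0.87 ± 0.062 (± SE). The falls were in Sesn1 (-0.57) and Zmat3 (-0.30), and 1 fell without siNC replicate 1 or 3. Glycolysis and hypoxia genes rose for 7 of 23 (11.3% of all genes), with Hk2, hexokinase 2, at 378, 397 and 403 CPM in siNC+H2O2+FV, against 104, 101 and 103 CPM in siNC (log2 fold change 1.94, SE 0.051, edgeR adjusted p = 1.43e-18) and the glucose transporter Slc2a1 at 84.1, 81.04 and 92.3 CPM in siNC+H2O2+FV, against 28.8, 27.04 and 31.96 CPM in siNC (log2 fold change 1.55, SE 0.077, edgeR adjusted p = 2.26e-13). The glycolytic enzymes Pkm and Gpi1 lay within 1.2-fold (intervals -0.085 to 0.16 and -0.10 to 0.12), although both have near-identical copies in the genome. Circadian clock genes rose for 5 of 18 and fell for 3 (11.3% and 11.6% of all genes). Bhlhe40, a clock repressor, had 199, 206 and 205 CPM in siNC+H2O2+FV, against 47.8, 43.3 and 50.4 CPM in siNC (log2 fold change 2.11, SE 0.061, edgeR adjusted p = 1.13e-17), Nfil3 had 1.43 ± 0.069 and Per3 had -0.47 ± 0.067 on the log2 scale (± SE). On library size alone 4 p53 targets and 4 glycolysis genes fell.

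Several large groups of genes ended mostly within 1.2-fold of the untreated level. The 23.7% of all genes that did so is a share over all levels, low ones included, where intervals are wider. Whether these groups exceed genes of like level was not tested. Of 29 nuclear genes of oxidative phosphorylation 22 lay within 1.2-fold, where 23.7% of all genes did, with Atp5a1 at 571, 589.7 and 601 CPM in siNC+H2O2+FV, against 604, 556 and 586 CPM in siNC (interval -0.079 to 0.11). The rise in this list, Uqcrb (log2 fold change 0.30), did not pass without siNC+H2O2+FV replicate 1. Of 25 lysosome and autophagy genes 19 lay within 1.2-fold. Ctsb, the protease cathepsin B, had 3917, 3755 and 4013 CPM in siNC+H2O2+FV, against 4046, 3521 and 3883 CPM in siNC (interval -0.078 to 0.14), while Sqstm1, the autophagy receptor p62, rose (log2 fold change 0.66, SE 0.048, edgeR adjusted p = 2.47e-10). In that list 3 rose and 2 fell, shares near the 11.3% and 11.6% of all genes, and without a single library of the 6, 0 or 1 fell. Atp5a1, Ctsb and Sqstm1 each overlap a gene on the opposite strand. No gene of mitosis and the kinetochore passed out of 23, and 13 lay within 1.2-fold, with Top2a, topoisomerase II, at 116, 112 and 106 CPM in siNC+H2O2+FV, against 102, 111 and 102 CPM in siNC (interval -0.043 to 0.22). The upper end of that interval reached 0.268 without siNC+H2O2+FV replicate 3 and 0.273 without siNC replicate 2, just outside 1.2-fold. Without siNC replicate 2, 1 mitosis gene rose. Genes of DNA replication rose for 4 of 23 (11.3% of all genes rose), with Rrm2, a ribonucleotide reductase subunit, at 88.2 ± 1.49 CPM in siNC+H2O2+FV and 66.6 ± 0.942 CPM in siNC (log2 fold change 0.40, SE 0.055, edgeR adjusted p = 5.37e-06), and 12 lay within 1.2-fold. On library size alone 4 mitosis genes, 5 replication genes, 4 lysosome genes and 1 oxidative phosphorylation gene fell.

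**Figure D4:**
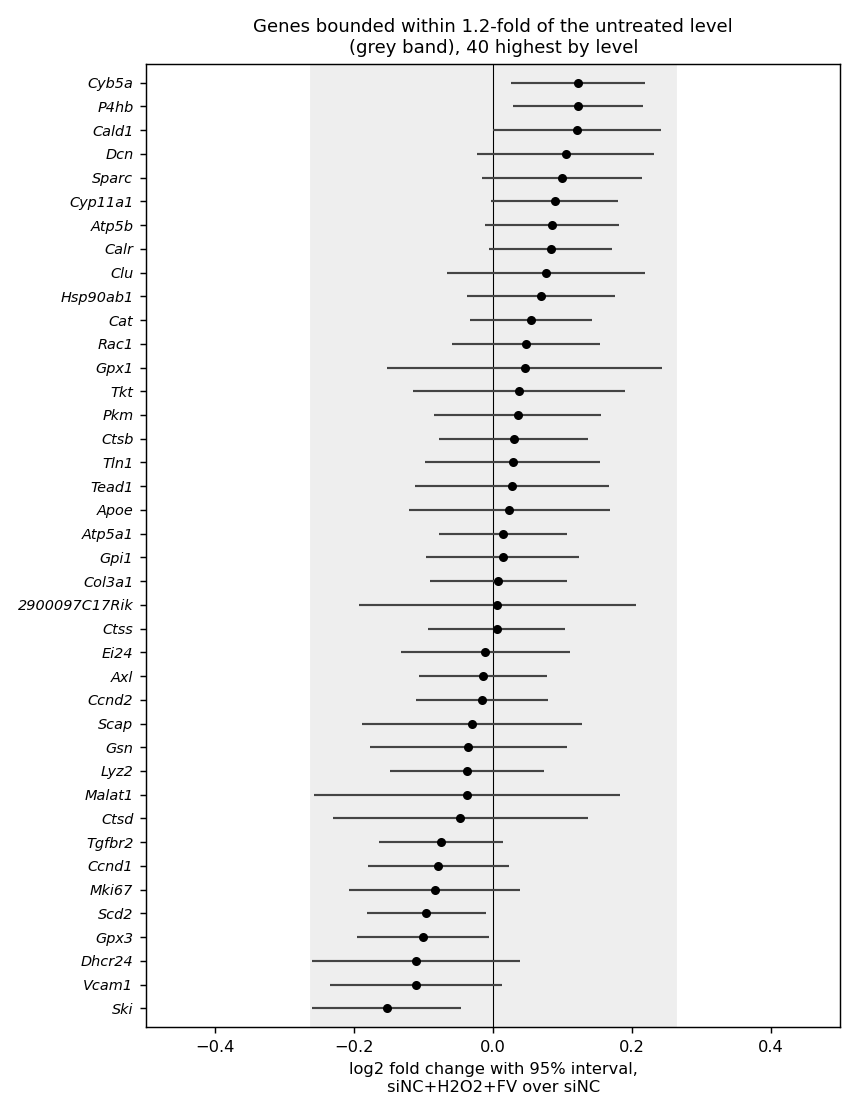
Log2 fold change of siNC+H2O2+FV over siNC with its 95% interval (x axis) for the 40 highest of the named genes that ended at the untreated level (y axis), with 1.2-fold in either direction as a grey band. Each interval lies within the band, and the estimates of Col3a1 and Atp5a1 are close to 0.

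Of 15 long noncoding and imprinted RNAs, 7 were lower after H2O2 alone than in untreated cells, where 4.59% of all genes fell. After H2O2 and fluvastatin 8 were higher and 2 lower than after H2O2 alone (13.5% and 11.3% of all genes). Against untreated cells 4 were higher and 4 lower after both treatments (11.3% and 11.6% of all genes). Malat1, a nuclear RNA of speckles (chr19:5795690-5802672, - strand), had 1313, 1483 and 1383 CPM in siNC+H2O2+FV, 712, 779.7 and 792 CPM in siNC+H2O2 and 1241, 1526 and 1525 CPM in siNC, so the H2O2 group lay below both others, which overlapped. Its net log2 fold change was -0.038 with an interval of -0.26 to 0.18, within 1.2-fold, though the lower end of the interval reached -0.35 without siNC replicate 1, -0.33 without siNC+H2O2+FV replicate 2 and -0.29 without siNC+H2O2+FV replicate 3. Meg3, an imprinted RNA, had 145, 163 and 172 CPM in siNC+H2O2+FV, 69.3, 74.5 and 78.5 CPM in siNC+H2O2 and 177, 190 and 191 CPM in siNC (log2 fold change -0.22, SE 0.061, edgeR adjusted p = 0.0111), and its net fall did not pass without siNC+H2O2+FV replicate 1 or siNC replicate 3. Neat1, the scaffold of paraspeckles, ended low, with 325, 278 and 318 CPM in siNC+H2O2+FV, 332, 359 and 364 CPM in siNC+H2O2 and 726, 715 and 749.5 CPM in siNC (log2 fold change -1.25, SE 0.058, edgeR adjusted p = 6.59e-14). Kcnq1ot1, an antisense RNA at an imprinted locus, had 5.77, 6.55 and 5.83 CPM in siNC+H2O2+FV, 3.88, 4.92 and 3.49 CPM in siNC+H2O2 and 11.9, 16.5 and 13.03 CPM in siNC (log2 fold change -1.19, SE 0.14, edgeR adjusted p = 8.16e-07), and part of it is near-identical to Gm42636. Of the 4 rises, Peg13 had a log2 fold change of 0.25, and Rian (0.27), Gas5 (0.21) and H19 (1.05) were chosen after their values were seen. The count of rises fell to 2 without siNC+H2O2+FV replicate 1 or 3 or siNC replicate 3, to 1 without siNC replicate 1, and to 0 on library size alone. Malat1 overlaps Gm37376 on the opposite strand.

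Mitochondrially encoded transcripts encode subunits of the respiratory chain and ATP synthase. After H2O2 alone 5 of 13 were lower and none higher than in untreated cells (4.59% of all genes were lower), and 9 were higher after fluvastatin than after H2O2 alone (13.5% of all genes). At the end 2 were above the untreated level, a share near the 11.3% of all genes, and none below it. mt-Cytb, the cytochrome b of complex III, had 2784, 2415 and 2435 CPM in siNC+H2O2+FV, 1910.1, 1800.2 and 1789 CPM in siNC+H2O2 and 2232, 2179.6 and 2263 CPM in siNC (log2 fold change 0.19, SE 0.068, edgeR adjusted p = 0.0423). The share of counts from these genes was 1.58%, 1.39% and 1.34% in siNC+H2O2+FV, 1.23%, 1.17% and 1.13% in siNC+H2O2, and 1.36%, 1.41% and 1.37% in siNC, so the H2O2 libraries were the lowest. Without any single library other than siNC+H2O2+FV replicate 3, 0 or 1 rose.

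Among genes averaging at least 1 CPM whose groups did not overlap, the largest falls were of smaller size than the largest rises. Pabpc4l, a poly(A)-binding protein-like gene, had 1.12, 0.64 and 0.734 CPM in siNC+H2O2+FV, against 4.29, 4.02 and 4.22 CPM in siNC (log2 fold change -2.34, SE 0.21, edgeR adjusted p = 3.23e-09), at low levels in all libraries. Dnm3os, a noncoding RNA that hosts microRNAs, had 8.63, 9.31 and 6.20 CPM in siNC+H2O2+FV, 17.7, 21.2 and 15.3 CPM in siNC+H2O2 and 27.6, 35.8 and 30.1 CPM in siNC, lower at each step (log2 fold change -1.96, SE 0.16, edgeR adjusted p = 5.8e-09). Klf15, a metabolic transcription factor induced by glucocorticoids, had 8.63, 8.67 and 10.9 CPM in siNC+H2O2+FV, 27.7, 29.2 and 33.0 CPM in siNC+H2O2 and 30.6, 30.9 and 34.2 CPM in siNC, with overlapping libraries after H2O2 alone (log2 fold change -1.76, SE 0.10, edgeR adjusted p = 3.01e-12). Clec2d, a C-type lectin, had 48.2, 41.6 and 45.1 CPM in siNC+H2O2+FV, 91.9, 89.96 and 88.3 CPM in siNC+H2O2 and 142, 131 and 139.7 CPM in siNC, lower at each step (log2 fold change -1.61, SE 0.08, edgeR adjusted p = 2.52e-13). The developmental factors Sall2 and Hoxc5 had log2 fold changes of -1.48 ± 0.10 and -1.52 ± 0.20 (± SE), and Hoxc5 overlaps Hoxc10. The others among the 12 largest falls were Zkscan4 (-1.76), Zfp273 (-1.73), Igdcc3 (-1.69), Tfap4 (-1.66), Ppp1r3c (-1.55) and Adamts15 (-1.54). Zfp273 is near-identical to Zfp85 over part of its length.

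The same treatments in the siprdx1 arm, which shares no library with the siNC comparison, gave 4193 genes that passed (25.5%), 2079 higher and 2114 lower. Of the 3775 siNC genes 3680 (97.5%) had the same sign there, and 2796 passed with the same sign, which is 74.1% of the siNC genes and 66.7% of the siprdx1 genes. Passing with the opposite sign occurred for 6. The difference between the net effects of the arms was tested directly, and 25 genes passed (0.152%), 24 of them with a lower net effect in siNC, while 1020 had an unadjusted p below 0.05. DESeq2 called 46 (6 higher and 40 lower), and without siprdx1 replicate 1 edgeR called 16.

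The interferon-stimulated genes held the most members whose net effect differed between the arms, since the difference passed for 10 of 30 and was negative for all 30, and no other list had more than 1. In siNC 17 had fallen and none had risen (11.6% and 11.3% of all genes). In siprdx1 12 rose and 4 fell (12.7% and 12.9% of all genes), with a median log2 fold change of 0.21. The share that fell in siprdx1 was near that of all genes. Ifit3 had 48.7, 47.4 and 51.3 CPM in siprdx1+H2O2+FV, against 32.5, 28.6 and 33.5 CPM in siprdx1, the opposite of its course in siNC (difference -1.33, SE 0.12, edgeR adjusted p = 1.61e-06). Ifit1, also of the IFIT family, had 17.7, 13.4 and 13.1 CPM in siNC+H2O2+FV, against 18.2, 20.01 and 18.7 CPM in siNC. In the other arm its level was 37.1, 36.4 and 38.2 CPM in siprdx1+H2O2+FV, against 18.7, 18.9 and 18.1 CPM in siprdx1 (difference -1.38, SE 0.13, edgeR adjusted p = 5.19e-06). Irf7, a transcription factor that amplifies interferon signalling, had net log2 fold changes of -0.23 in siNC and 0.52 in siprdx1 (difference -0.75, SE 0.077, edgeR adjusted p = 1.19e-05). Rsad2, viperin, had -0.21 in siNC and 1.36 in siprdx1 (difference -1.58, SE 0.17, edgeR adjusted p = 3.22e-05). Isg15, a ubiquitin-like modifier, had -0.14 in siNC and 0.93 in siprdx1 (difference -1.07, SE 0.15, edgeR adjusted p = 0.00106). The summed level of the list was 1009 to 1023 CPM in siprdx1+H2O2+FV and 867 to 906 CPM in siprdx1. In siprdx1+H2O2, which had H2O2 and then 0.1% DMSO, the sum was 996 to 1035 CPM, a range that overlapped that of siprdx1+H2O2+FV. Of 17 macrophage markers 14 had a negative difference (median -0.13), where the median over all genes was -0.0047. Other lists varied, with 22 of 24 antioxidant enzymes (median -0.12) and 4 of 18 circadian clock genes (median 0.062) negative. The share of all genes with a negative difference was not counted. The difference passed for Marco, a scavenger receptor, at -0.081 in siNC and 0.38 in siprdx1 (difference -0.46, SE 0.086, edgeR adjusted p = 0.0205). The difference in Marco did not pass without siNC+H2O2+FV replicate 1 or 3, siNC replicate 2, siprdx1+H2O2+FV replicate 1 or 2 or siprdx1 replicate 1 or 3, with an edgeR adjusted p of up to 0.121. In siprdx1 4 of the 17 markers rose (12.7% of all genes), and in siNC 1 (11.3% of all genes). Their summed level was 9180 to 9637 CPM in siprdx1+H2O2+FV and 8442 to 8668 CPM in siprdx1, and its part in the interferon result was not tested. The single gene with a higher net effect in siNC (0.00609% of genes tested) was Slc38a2, an amino acid transporter, at 0.39 in siNC and -0.17 in siprdx1 (difference 0.56, SE 0.092, edgeR adjusted p = 0.00542).

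**Figure D5:**
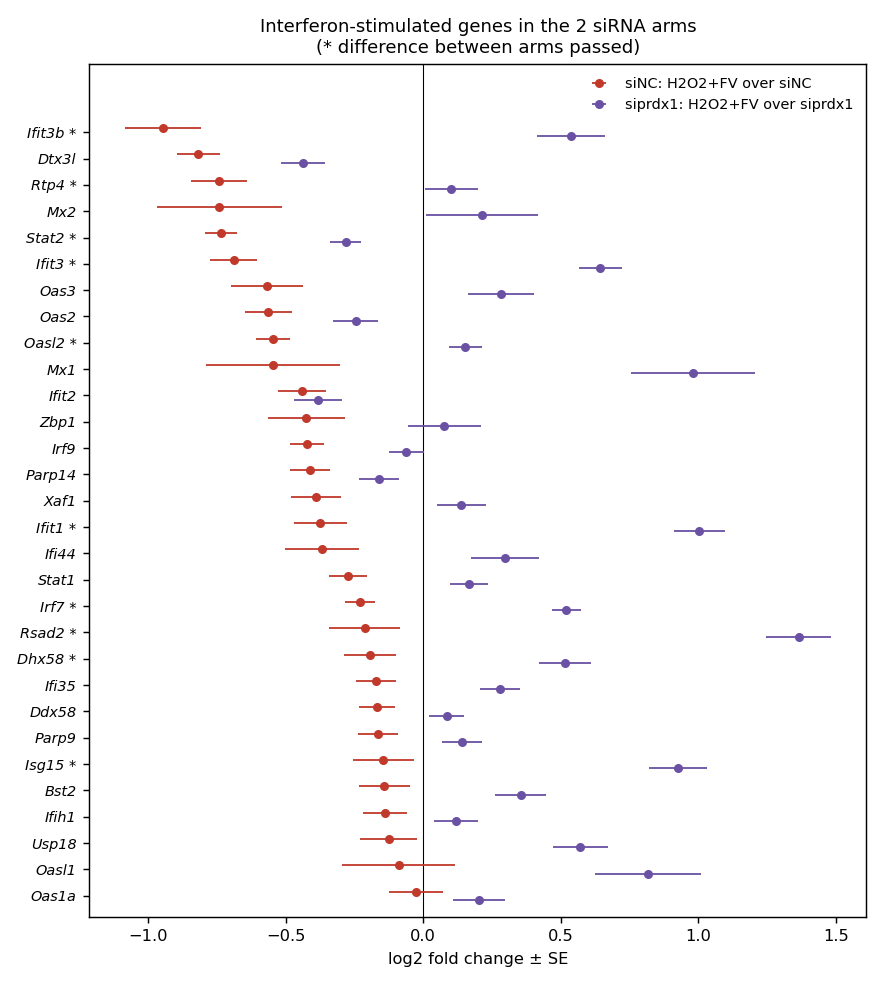
Net log2 fold change with its SE (x axis) of 30 interferon-stimulated genes (y axis) in the siNC arm, siNC+H2O2+FV over siNC (red, drawn above), and in the siprdx1 arm, siprdx1+H2O2+FV over siprdx1 (purple), with an asterisk where the difference between arms passed. Ifit1, Isg15 and Rsad2 lie left of 0 in siNC and right of it in siprdx1.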

How the data were processed

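Poly(A) RNA of 18 samples was sequenced on stranded libraries (per the labels' protocols). Raw read counts were deposited by the authors for 55487 genes, 1 column per library, and HISAT2, HTSeq and mm10 are named in the submitters' processing notes; annotation and strand setting are not given in the sources used here. Of the gene IDs 55227 were in GENCODE vM21 (GRCm38). Near-identical copies were sought with blastn 2.17.0.

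Counts were fitted with edgeR 4.0.16 in R 4.3.3 (TMM, filterByExpr, robust quasi-likelihood, 6 group means, 18 libraries, 12 residual degrees of freedom). The threshold was an adjusted p (Benjamini-Hochberg, over 16432 genes) below 0.05. Intervals are 95% on the moderated standard error. With 3 against 3 libraries an exact test cannot go below 0.1. The lists, the named genes and the comparison were chosen with earlier results of these data known. Named genes were the 12 largest rises and falls of at least 1 CPM with no overlap, up to 4 smallest p per list, 2 bounded genes per list, 4 per direction for the difference between arms and a fixed set of 20. Members named to complete a count were chosen after their values were seen.

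The replicate numbers are not stated to mark a shared animal or day. The alternatives were RLE and library-size scaling, no low-count filter, the block, fits to only the groups compared or the siNC arm (the last added after seeing the data), limma voom 3.58.1, DESeq2 1.42.0, a log2 fold change of at least 1 and omission of each library. The steps were tested on simulated data. Some results are not reported here.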

Additional observations from a re-analysis of the deposited data

Results flagged for a closer look

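For 25 genes the net effect of H2O2 and fluvastatin differed between the siNC and siprdx1 arms in edgeR's test of the difference itself. Each value is the net log2 fold change in siNC minus that in siprdx1.

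Among genes induced by interferon the difference was -1.58 for Rsad2, -1.48 for Ifit3b, -1.38 for Ifit1, -1.33 for Ifit3, -1.07 for Isg15 and -0.92 for Cmpk2. It was -0.84 for Rtp4, -0.84 for Iigp1, -0.75 for Irf7, -0.71 for Dhx58, -0.70 for Oasl2 and -0.45 for Stat2. Ifit3 and Ifit3b can share reads.

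Of genes that rose in both arms, Cxcl2 had -0.99, Gadd45g had -0.62, Odc1 had -0.50, H1f2 had -0.46, Angptl4 had -0.42, Ccn2 had -0.37, Thbs1 had -0.34 and H1f0 had -0.33. Odc1 has near-identical copies. Neat1, which fell in both arms, had -0.53. Bhmt had -0.62, Marco, a macrophage scavenger receptor, had -0.46 and Scara5 had -0.40. The single positive difference was 0.56 for Slc38a2. The cause of these differences was not tested.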

How the results depend on the processing

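The count of genes that passed in siNC (3775) stayed within 1.5 times under RLE scaling, no filter, limma voom, DESeq2, fits to only the groups compared and only the siNC arm. Requiring a log2 fold change of at least 1 left 633 genes in siNC (390 higher, 243 lower), 714 in siprdx1 (436 and 278) and 5 for the difference between arms (0 and 5). Unscaled library sizes gave 1170 higher and 4003 lower in siNC, and 1153 higher and 4503 lower in siprdx1, by its shift of all log2 fold changes. For the difference, no filter gave 56 genes (13 higher, 43 lower) and DESeq2 46 (6 and 40), and the cause was not tested. Omitting single libraries gave 3013 to 3540 genes in siNC, 3342 to 3730 in siprdx1, 16 to 26 for the difference (15 to 25 lower) and 3075 to 3396 within 1.2-fold.

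Small changes near 0 turned sign. Abca1 (-0.0019) became 0.0026 under RLE and DESeq2, and ranged from -0.0384 to 0.0377 on omission. Hsd3b1 became 0.0046 under RLE, 0.0011 with only the groups compared and 0.0041 with DESeq2, and -0.0223 to 0.0152 on omission. Cyp11a1 became -0.032, Insl3 -0.0329 and, in siprdx1, Rtp4 -0.0377 and Iigp1 -0.0811 on library size alone. On omission Insl3 ranged from -0.1708 to 0.3846 and Malat1 from -0.1302 to 0.0124.

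Same-numbered siNC libraries correlated in their deviations at 0.054, 0.104 and 0.14, so the numbers were not taken to pair them, although each library correlated best with its own number. With the replicate number as a block 3955 genes passed in siNC, 4371 in siprdx1 and 25 for the difference, and 4067 lay within 1.2-fold. With the block 4 YAP targets fell, and 5 lysosome genes and 5 mitochondrially encoded genes rose. Unscaled library sizes took the intervals of Tgfa, Scap, Gpx3, Gsn, Ski and Malat1 out of the 1.2-fold band, as did no filter (-0.278) and only the groups compared (-0.274) for Ski. At this depth and with 3 libraries a group, 8819 genes met neither criterion.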
